A study of Mus musculus with 21 samples.

Results

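The genes described here are 51 interferon-stimulated genes and guanylate-binding proteins (GBPs), followed across 6 groups of sorted conventional dendritic cells (cDCs) of the mouse. The members are a list of gene symbols and were found in the deposited tables by their gene name, giving 51 of the 37734 genes listed. The study compared the transcriptome of cDCs that reside in the spleen with that of cDCs in the thymus, at different states of maturation and in both cDC subsets. All cells came from C57BL/6 mice aged 6 to 8 weeks, as pools of 10 to 15 animals, with no treatment other than tissue digestion and CD11c bead selection. cDC1 were sorted as CD24+ CD11b- CD11c+ cells negative for F4/80, Ly6g, Ly6c, DX5 and B220, and cDC2 as B220- CD24- CD11b+ CD11c+ cells, for which the labels name no negative gate on F4/80 or Ly6c. In its flow cytometry of NOD mice the study gated both subsets as F4/80-. Immature cells were CCR7- ESAM- and mature cells CCR7+ ESAM+. The 6 groups were immature splenic cDC1 (4 samples), immature splenic cDC2 (3), immature thymic cDC1 (4), immature thymic cDC2 (3), mature thymic cDC1 (3) and mature thymic cDC2 (3). No mature splenic cDCs were among the groups, so that maturation could be compared in the thymus alone.

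Type I and type III interferons bind their receptors at the cell surface, and the kinases JAK1 and TYK2 then activate a complex that holds STAT2 and IRF9 and binds a DNA element called the ISRE. Type II interferon (IFN-gamma) signals through JAK1 and JAK2 to a different element, the GAS, and also through induced IRF1, which can itself bind ISRE-like sequences. The target genes encode sensors of viral RNA and DNA, enzymes that degrade or block viral RNA, and the ubiquitin-like modifier ISG15. Others encode large GTPases (GBPs and immunity-related GTPases) with roles in defence against intracellular microbes. In the thymus, interferon-stimulated genes are known to be expressed without infection.

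Values are normalized read counts, that is the reads of a gene divided by 1 size factor per library, and every fold change below is a log2 difference of the value plus 1. A gene was called when its limma adjusted p was below 0.1 and its absolute log2 fold change above 1. All 51 members passed the filter on low values and were tested, together with 14966 genes in all. Between 14266867 and 40119669 reads were recovered per library. All 5 cDC2 markers tested were called higher in cDC2 than in cDC1 in each of the 3 tissue and maturation states, and of 6 cDC1 markers 5, 6 and 4 were lower in cDC2 in the spleen, the immature and the mature thymus. The summed level of Ccr7, Esam, Fscn1, Cd40, Cd80 and Ccl22 was 410429 to 540140.0 in mature and 5603 to 7794 in immature thymic cDC1. In thymic cDC2 the sum was 359268 to 508676 in mature and 23457 to 33577 in immature cells. Among immature thymic cells, 3 of these 6 genes were called higher and 1 lower in cDC2 than in cDC1. In mature thymic cDC1 the cDC2 marker Itgam was listed at 0 in all 3 samples. The 5 cDC2 markers, however, summed to 2114 to 3607 in mature and 378 to 727 in immature thymic cDC1. Of these 5, 1 (Irf4) was called higher and 3 lower in mature than in immature thymic cDC1. Nothing in the labels says that the samples of a group came from separate pools in every case: the number that opens a library's name recurs within immature splenic cDC1 (samples 1 and 4) and within immature thymic cDC1 (samples 3 and 4), so that p-values measure the spread between these samples, which may in part be technical. The number also recurs between groups, as in replicate 3 of both mature groups. Mature thymic cDC1 sample 1 likewise shares its number with sample 3 of both immature thymic groups. Replicate 3 of the mature thymic cDC1 stood apart, with 48 of 51 members above the mean of its own group against 11 and 9 in the other samples.

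Because many of these genes are known targets of the ISRE, the bases before the transcription start are shown for 6 members chosen, after their values were seen, to represent the patterns described below: Isg15 (higher in thymus), Ifit1 and Ifit3 (higher in cDC2), Gbp2 and Gbp3 (higher in mature cells) and Slfn8 (lower in mature cells). Each is the 160 bases before the RefSeq start (GRCm38.p6), 5′ to 3′ on the strand of the gene, and capitals mark a core of the ISRE, GAAA and GAAA with any 2 bases between them, on either strand (on the opposite strand it reads TTTC and TTTC).
Isg15, chr4:156200819-156200978, minus strand: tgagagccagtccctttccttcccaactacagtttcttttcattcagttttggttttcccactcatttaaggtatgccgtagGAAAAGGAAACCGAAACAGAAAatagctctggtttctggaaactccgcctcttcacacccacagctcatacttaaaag
Ifit1, chr19:34640729-34640888, plus strand: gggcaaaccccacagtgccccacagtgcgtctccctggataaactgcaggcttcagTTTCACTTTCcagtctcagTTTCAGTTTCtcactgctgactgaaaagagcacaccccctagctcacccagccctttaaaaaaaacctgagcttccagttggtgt
Ifit3, chr19:34583369-34583528, plus strand: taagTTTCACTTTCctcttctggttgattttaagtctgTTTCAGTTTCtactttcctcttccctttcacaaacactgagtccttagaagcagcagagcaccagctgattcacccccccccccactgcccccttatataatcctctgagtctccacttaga
Gbp2, chr3:142620503-142620662, plus strand: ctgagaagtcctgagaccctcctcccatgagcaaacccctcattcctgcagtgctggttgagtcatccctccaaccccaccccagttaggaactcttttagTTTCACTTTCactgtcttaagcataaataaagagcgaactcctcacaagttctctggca
Gbp3, chr3:142559884-142560043, plus strand: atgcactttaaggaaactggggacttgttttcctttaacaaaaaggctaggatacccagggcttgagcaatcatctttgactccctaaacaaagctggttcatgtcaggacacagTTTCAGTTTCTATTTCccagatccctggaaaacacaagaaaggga
Slfn8, chr11:83020811-83020970, minus strand: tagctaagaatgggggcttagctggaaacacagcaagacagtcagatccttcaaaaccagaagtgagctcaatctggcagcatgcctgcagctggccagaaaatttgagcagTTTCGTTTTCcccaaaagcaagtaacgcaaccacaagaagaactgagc
Overlapping matches run together in the capitals, as in Isg15 with 3 matches and Gbp3 with 2. A promoter window of 250 bases before to 50 bases after the start was found for 37 of the 51 members, and 22 of them (59.5%) held this ISRE core, against 3.99% of 27025 mouse genes with a window. The GAS core TTCNNNGAA, which reads the same on both strands and whose matches may overlap those of the ISRE core, was found in 10 of the 37 (27%) and in 9.55% of all genes. Of the members described below as lower after maturation of cDC2, 11 of 18 with a window held the ISRE core, and of those higher 4 of 5, so that the core was found among members that moved in either direction. The GENCODE M21 starts of Ifit1, Gbp2 and Gbp3 fall inside the bases shown, upstream of the RefSeq starts. A match is a run of letters and not a measured binding site.

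The members were lowest as a group in immature splenic cDC1 and highest in immature thymic cDC2. As a description, the median over the 51 members of the log2 deviation from the mean of the 6 groups was -1.39, -1.13, -1.56 and -1.31 in the 4 samples of immature splenic cDC1 and -0.36, -0.20 and -0.29 in immature splenic cDC2. It was 0.22, 0.37, 0.17 and 0.10 in immature thymic cDC1 and 0.87, 1.00 and 0.73 in immature thymic cDC2. In mature thymic cDC1 it was 0.21, -0.0083 and 0.75, and in mature thymic cDC2 0.54, 0.54 and 0.38. The 4 immature groups did not overlap, with splenic cDC1 the lowest and thymic cDC2 the highest, whereas the 3 mature thymic cDC1 samples spread from below every immature thymic cDC1 sample to within the range of immature thymic cDC2. By group mean, 27 members were highest in immature thymic cDC2, 12 in mature thymic cDC1, 8 in immature thymic cDC1, 3 in mature thymic cDC2 and 1 in immature splenic cDC1, and 29 were lowest in immature splenic cDC1. Per kilobase of exon, Ly6e, a small GPI-anchored surface protein, had the highest level of all members in each of the 4 immature groups, while Isg15 was the first in mature thymic cDC1 and Gbp2 in mature thymic cDC2.

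**Figure D1:**
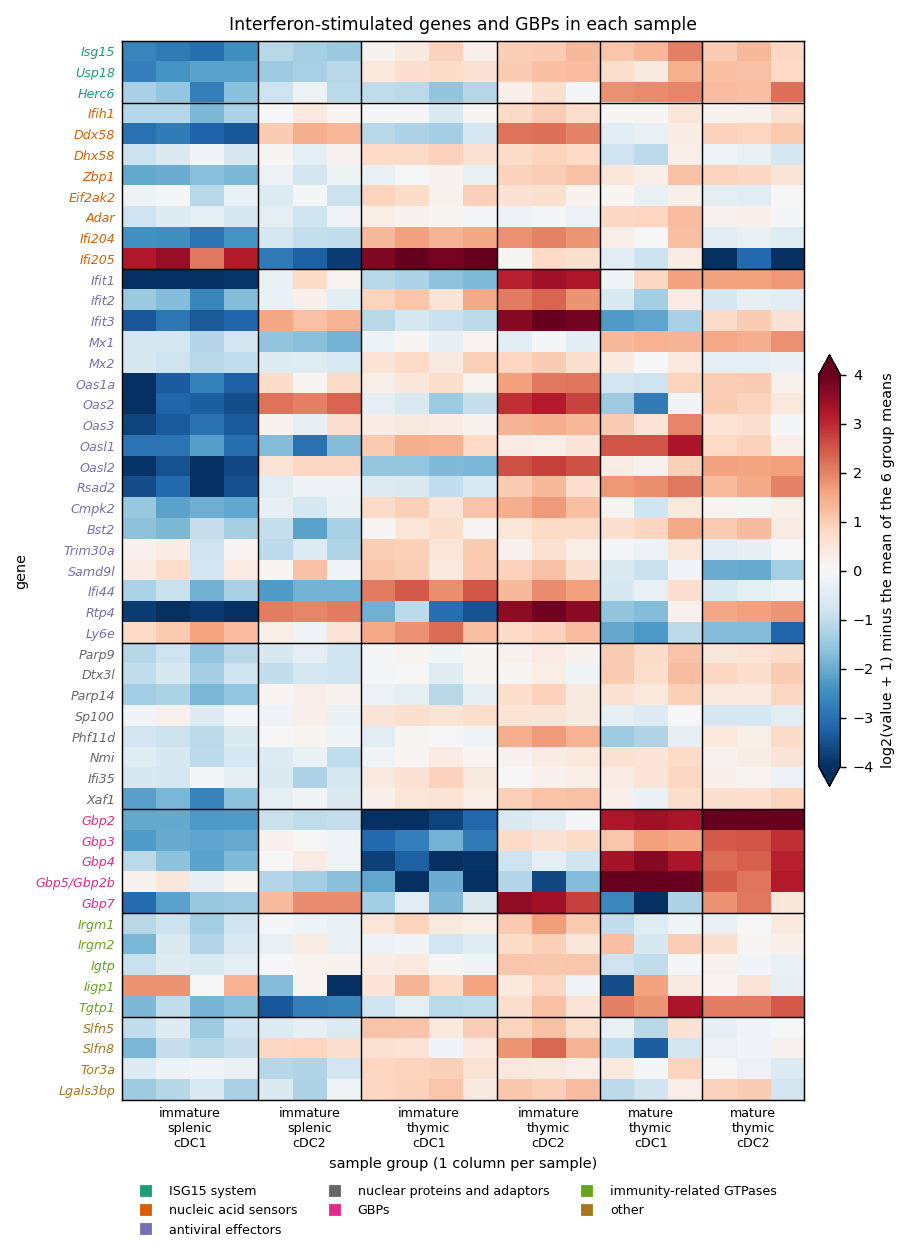
Each row is 1 of the 51 members, ordered and coloured by role, and each column 1 of the 20 samples in their 6 groups. The colour gives log2(value + 1) minus the mean of the 6 group means, so that most rows are blue (lower) in immature splenic cDC1 and red (higher) in immature thymic cDC2, while Gbp2, Gbp3, Gbp4 and Gbp5/Gbp2b are red in the mature groups.

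The first question was whether these genes differ between thymic and splenic cDCs that are both immature. In cDC1, 30 of the 51 members were higher in the thymus and 3 lower, against 4.26% and 4.49% of all genes tested. In cDC2, 28 members were higher and 0 lower, against 8.3% and 5.87% of all genes (limma; edgeR and DESeq2 also called 0 members lower, against 5.89% and 6.43% of all genes). At an unadjusted limma p below 0.05, 1 member, Gbp4, was lower in thymic cDC2 (-0.73 ± 0.26, SE). The median log2 difference of the members was 1.18 in cDC1 and 1.39 in cDC2, beside 0.0041 and 0.021 over all genes. In 40 members every thymic cDC1 sample lay above every splenic cDC1 sample (8.85% of all genes) and in 46 members every thymic cDC2 sample above every splenic cDC2 sample (22.2%). In 3 and 1 members, in the same order, every thymic sample lay below (8.91% and 17.1% of all genes). The cDC1 and cDC2 comparisons share no sample, and 22 members were called higher in both, that is 73.3% of those called in cDC1 and 78.6% of those called in cDC2. For all genes, the 395 called higher in both made up 61.9% and 31.8%. The libraries were run on 2 sequencing lanes that each held thymic and splenic immature cells, and within lane 5 alone the member median was 1.26 in cDC1 and 1.20 in cDC2, and within lane 8 alone 1.32 and 1.29. The lane 5 values rest on 1 thymic against 2 splenic samples in each subset. Those of lane 8 rest on 3 against 2 samples in cDC1 and 2 against 1 in cDC2.

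**Figure D2:**
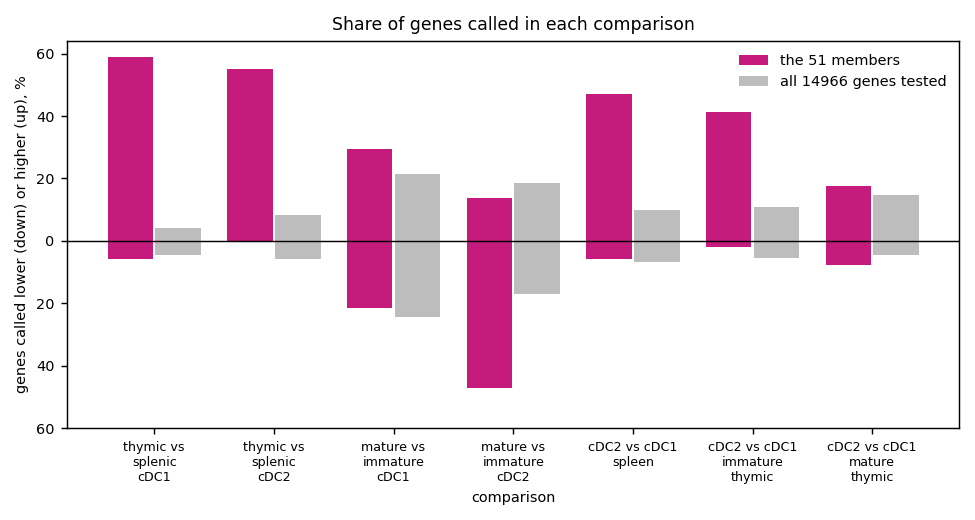
Bars give the percentage of the 51 members (magenta) and of all 14966 genes tested (grey) called higher (upward) or lower (downward) in each comparison of a pair of groups. Members exceed all genes most clearly on the higher side between thymus and spleen. They also exceed all genes on the higher side for cDC2 against cDC1 in immature cells, and on the lower side for maturation of cDC2.

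Among the sensors, Ifi204, a member of the IFI16 family of DNA-binding proteins, differed most between tissues in cDC1. Its values were 247, 241, 169.9 and 255 in splenic cDC1 and 3278, 4177, 3449 and 3932 in immature thymic cDC1 (4.03 ± 0.19, SE, adjusted p = 1.53e-11). In cDC2 they were 828, 694 and 679 in the spleen and 4767, 5219 and 4561 in the thymus (2.73 ± 0.22, SE, adjusted p = 2.95e-08). The tissues did not overlap in either subset, and the difference was larger in cDC1 than in cDC2 by a test of the difference itself (-1.30 ± 0.30, SE, adjusted p = 0.0111). In all, 6 of the 8 sensors were higher in thymic cDC1 (Ifi204, Ddx58, Zbp1, Dhx58, Ifih1 and Eif2ak2) and 3 in thymic cDC2 (Ifi205, Ifi204 and Zbp1). Adar, the RNA-editing enzyme, was called in neither subset (0.69 in cDC1 and 0.26 in cDC2).

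Most antiviral effectors were higher in the thymus, 14 of 18 in cDC1 and 15 of 18 in cDC2, and none was called lower. Oasl1, an oligoadenylate synthetase-like protein known to restrain translation of Irf7, read 99.9, 102, 172 and 93.8 in splenic cDC1 and 1628, 2140.5, 2058 and 1378 in immature thymic cDC1 (3.96 ± 0.27, SE, adjusted p = 2.17e-09). Oas1a, which makes the 2-5A messenger that activates RNase L, read 53.5, 95.7, 146 and 99.1 in the spleen and 1129, 1332, 1579 and 1041 in the thymus in cDC1 (3.74 ± 0.33, SE, adjusted p = 9.36e-08). In cDC2 the same gene read 1609, 1026 and 1613 in the spleen and 2995, 4168 and 4206 in the thymus (1.43 ± 0.39, SE, adjusted p = 0.0111), so that its tissue difference was smaller in cDC2, in which the splenic level was already high (-2.31 ± 0.51, SE, adjusted p = 0.00874). Reads of Oas1a and Oas1g, a close copy, could be divided between the 2 genes by the counting, and Oas1g had its own log2 difference of 5.26 in cDC1. Oas3, Oas2 and Rsad2 (viperin, which makes a chain-terminating nucleotide) likewise had smaller tissue differences in cDC2, the cDC2 minus cDC1 difference being -2.40, -2.01 and -1.61 on the log2 scale. Oas3 read 65.9, 82.8, 108 and 83.4 in the spleen and 1074, 1118, 1064 and 977 in the thymus in cDC1. In cDC2 its values were 954, 683 and 1338 in the spleen and 2236, 2358 and 2188 in the thymus, and the tissues overlapped in neither subset. Ifi44, a cytoplasmic protein with antiviral activity, was far higher in the thymus in both subsets. Its values in cDC1 were 199.7, 260.4, 125 and 193 in the spleen and 2032, 2616, 1759 and 2698 in the thymus (3.57 ± 0.26, SE, adjusted p = 5.97e-09), and in cDC2 98.8, 129 and 129 in the spleen and 1191, 1778 and 1492 in the thymus (3.62 ± 0.30, SE, adjusted p = 2.94e-08). The difference between subsets was 0.058 ± 0.39 (SE), which did not pass the test.

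Isg15 and Usp18, the protease that removes ISG15 and blunts receptor signalling, were both higher in the thymus, Isg15 by 3.13 in cDC1 and 2.41 in cDC2, and Usp18 by 2.96 and 2.45. Herc6, the mouse ISG15 ligase, was not called (0.60 and 0.96). Of the 8 nuclear proteins and adaptors, 3 were higher in thymic cDC1 (Xaf1, Parp9 and Parp14, the last at a log2 difference of 1.00 at the edge of the threshold) and 2 in thymic cDC2 (Phf11d and Xaf1). Exons of Parp9 and Dtx3l overlap on opposite strands, and the strand setting of the counting is not known here. Of the 5 immunity-related GTPases, Irgm1 was higher in the thymus in both subsets (1.53 and 1.45), and Tgtp1 and Igtp in cDC2 alone by the call, with Igtp at 0.73 and 1.02. Exons of Igtp and Irgm2 overlap on the same strand, so that their reads may be shared. The remaining 4 members were higher in thymic cDC1: Slfn5 and Slfn8 of the Schlafen family (1.84 and 1.56), the secreted glycoprotein gene Lgals3bp (1.92) and Tor3a (1.09), and all but Slfn8 (1.02) were called in cDC2.

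The 2 genes with the largest tissue difference in cDC2 differed less in cDC1. Ifi205, another IFI16 family gene, read 189, 141 and 97.8 in splenic cDC2 and 1423, 2368 and 2139 in immature thymic cDC2 (3.80 ± 0.34, SE, adjusted p = 1.02e-07). In cDC1, in which it was far more abundant, it read 12534, 15183, 5924 and 12213 in the spleen and 18144, 22629, 19447 and 21578 in the thymus, a log2 difference of 0.91 that stayed under the fold threshold. Tgtp1, an immunity-related GTPase also named IRGB6, read 32.0, 50.6 and 53.8 in splenic cDC2 and 560.4, 773 and 494 in immature thymic cDC2 (3.72 ± 0.34, SE, adjusted p = 1.12e-07). In cDC1 it read 97.8, 174, 95.1 and 104 in the spleen and 199, 269.8, 164 and 172 in the thymus (0.79, not called). The test of the difference between subsets gave 2.89 (adjusted p = 0.000419) for Ifi205 and 2.94 (adjusted p = 0.000325) for Tgtp1. Tgtp1 has a near-identical neighbour, Tgtp2, with which it may exchange reads.

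Of the 5 GBPs, GTPases that coat and lyse microbe-containing vacuoles, none was called higher in the thymus in either subset, and 3 were lower in thymic than in splenic cDC1. Gbp2 read 273, 273, 229 and 234 in splenic cDC1 and 43.9, 58.3, 85.8 and 126 in immature thymic cDC1 (-1.78 ± 0.22, SE, adjusted p = 7.48e-06). Gbp4 read 655, 444, 315 and 406 in the spleen and 103, 142, 82.7 and 90.9 in the thymus (-2.09 ± 0.23, SE, adjusted p = 1.19e-06), and neither gene's tissues overlapped. The third is listed as Gbp5 under an identifier, ENSMUSG00000040264, that the GENCODE M21 annotation gives to Gbp2b, and it is called Gbp5/Gbp2b here. It had 30.9, 38.5, 22.2 and 30.4 in splenic cDC1 and 5.91, 0, 6.24 and 0 in immature thymic cDC1 (-3.54 ± 0.63, SE, adjusted p = 0.000481), where 0 to 7 reads per sample lie near the limit of counting. In cDC2 none of the 5 GBPs was called between tissues, the differences being 0.60 for Gbp2, 0.69 for Gbp3, -0.73 for Gbp4, -0.77 for Gbp5/Gbp2b and 1.53 for Gbp7. The tissue difference of Gbp2, Gbp4 and Gbp3, in this order, was higher in cDC2 than in cDC1 by 2.37, 1.36 and 1.22, each past the threshold. By that test 5 members had a higher and 8 a lower tissue difference in cDC2, against 3.25% and 1.72% of all genes. Within lane 8 alone, the calls of that kind fell from 5 to 2 members higher and from 8 to 2 lower, against 1% and 0.494% of all genes in that fit.

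In these bulk samples, fewer cells of a type and less RNA per cell cannot be told apart. Sums of markers below are over all genes of a list that were found, and counts are over those tested. In cDC1, the markers of macrophages summed to 670.2 to 1099.7 in the spleen and 1043 to 1333 in the immature thymic cells, with 0 of 9 genes called higher and 1 lower, those of monocytes to 15792 to 23002 and 7360.3 to 9893, with 1 of 6 higher and 2 lower, and those of plasmacytoid dendritic cells (pDCs) to 3803 to 4716 and 2186 to 3793, with 1 of 8 higher and 3 lower. In cDC2, 4 of 9 macrophage genes were higher in the thymus and 1, Cd5l, was lower, with sums of 6008 to 6790.1 in the spleen and 7991 to 11172 in the thymus. The 4 were C1qa, C1qb, C1qc and Timd4, with log2 differences of 2.67, 2.52, 2.46 and 3.79. Adgre1, most of the splenic sum, had means of 4534 in the spleen and 1874 in the thymus and was not called. Of 6 monocyte genes 3 were higher and 0 lower (10947 to 19545 and 18869 to 23171), and of 8 pDC genes 5 were higher and 2 lower (6978 to 7438 and 9653 to 10525). Thymocyte markers were at 48.4 to 83.8 in splenic and 187 to 273 in immature thymic cDC1, with 7 of 8 genes higher, and at 35.0 to 87.9 and 190.0 to 307 in cDC2, with 5 of 8 higher. Markers of thymic epithelial cells summed to 57.2 to 79.3 in the spleen and 597 to 711 in the immature thymus in cDC1, with 4 of 6 genes called higher. In cDC2 they summed to 96.1 to 156 in the spleen and 3507 to 3877 in the thymus, with 6 of 6 higher. Most of that sum was Epcam, which read 501, 584, 576 and 663 in immature thymic cDC1 and 3391, 3443 and 3715 in immature thymic cDC2. The part of all these markers in the member differences was not tested.

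**Figure D3:**
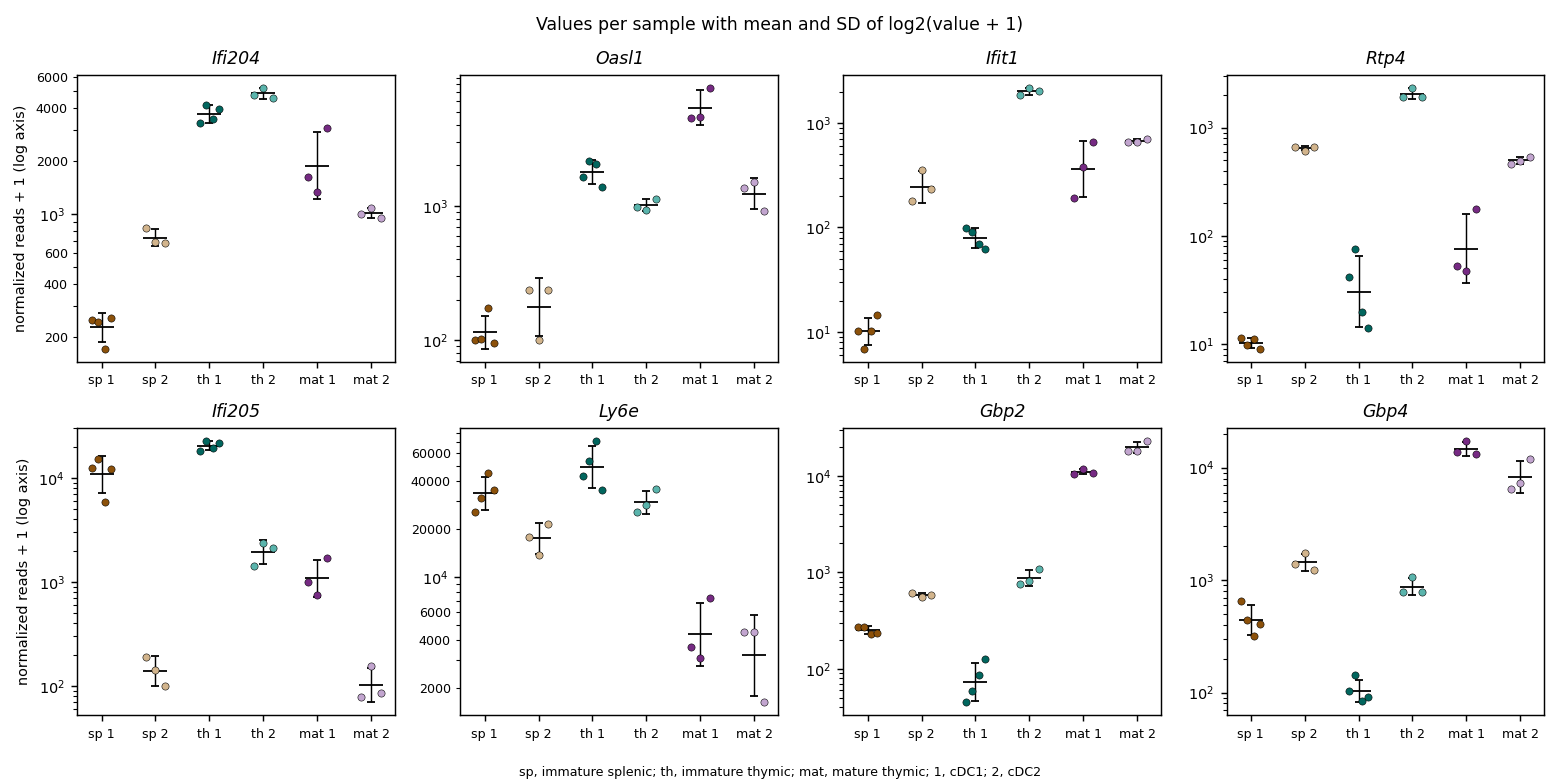
Points are the normalized reads plus 1 of single samples on a log axis for 8 members, with a bar at the mean and whiskers of 1 SD of log2(value + 1) for each of the 6 groups. Ifi204 and Oasl1 rise from spleen to thymus, Ifit1 in immature cells and Rtp4 in every state lie higher in cDC2 than in cDC1, Ifi205 and Ly6e fall in mature cells, and Gbp2 and Gbp4 rise above every immature group in mature cells.

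The second comparison set cDC2 against cDC1. In the spleen 24 members were higher in cDC2 and 3 lower, against 9.9% and 6.71% of all genes. Among immature thymic cells 21 were higher and 1 lower (11% and 5.43% of all genes), and among mature thymic cells 9 were higher and 4 lower (14.6% and 4.36%). The member medians were 0.85, 0.72 and -0.12, beside 0.02, 0.012 and 0.14 over all genes. Without mature cDC1 replicate 3, the median among mature cells was 0.25, with 12 members higher and 4 lower, against 17.9% and 5.96% of all genes in that fit. In the spleen every cDC2 sample lay above every cDC1 sample in 30 members and below in 6 (17% and 14.6% of all genes). The same counts were 30 and 5 in immature thymic cells (20.2% and 14.5%), and 11 and 9 in mature ones (20.7% and 12.1%).

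A set of effectors was low in cDC1 and far higher in cDC2. Rtp4, a chaperone of receptors that is also an interferon-stimulated antiviral protein, read 10.3, 8.88, 10.2 and 8.07 in splenic cDC1 and 661, 613 and 665 in splenic cDC2 (5.97 ± 0.46, SE, adjusted p = 3.98e-09). In immature thymic cells it read 40.5, 75.0, 18.7 and 13.1 in cDC1 and 1909.7, 2345 and 1917 in cDC2 (6.06 ± 0.46, SE, adjusted p = 4.19e-09), and in mature cells 51.6, 46.8 and 177 in cDC1 and 464, 496 and 534 in cDC2 (2.70 ± 0.49, SE, adjusted p = 0.00044). Every cDC2 sample lay above every cDC1 sample in each state. Ifit1, which binds viral RNA that lacks the host's cap methylation, read 9.26, 5.92, 9.24 and 13.4 in splenic cDC1 and 177, 352 and 231 in splenic cDC2 (4.59 ± 0.34, SE, adjusted p = 2.52e-09). Its immature thymic values were 98.0, 89.9, 68.7 and 61.6 in cDC1 and 1838, 2178 and 2005 in cDC2 (4.66 ± 0.34, SE, adjusted p = 2.57e-09). Ifit3, its partner, read 21.6, 30.6, 22.2 and 25.0 in splenic cDC1 and 689, 531 and 611 in splenic cDC2 (4.57 ± 0.24, SE, adjusted p = 1.19e-11). In immature thymic cells it read 109, 145, 126 and 113 in cDC1 and 2984, 4036 and 3428 in cDC2 (4.81 ± 0.24, SE, adjusted p = 8.7e-12). Ifit3 has a near-identical copy, Ifit3b, whose own differences were 4.91 and 5.51.

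Oas2, another 2-5A synthetase, read 25.7, 58.2, 53.6 and 45.3 in splenic cDC1 and 2432, 2206 and 2733 in splenic cDC2 (5.78 ± 0.42, SE, adjusted p = 1.48e-09), without overlap. The pattern was also seen in Oasl2 (4.49 in the spleen and 4.29 in the immature thymus) and in the RNA sensor gene Ddx58, which encodes RIG-I (4.36 and 3.23). Ifih1, which encodes the related sensor MDA5, differed less (1.49 in the spleen, and 0.99, not called, in the thymus), and Dhx58, which encodes the regulator LGP2, was not called (0.48 and 0.052). The RNA-dependent kinase gene Eif2ak2 was also not called in any of the 3 states (-0.074, -0.24 and -0.25). Mx1, of a family of large GTPases, had lower values in splenic cDC2 (2192, 2041 and 1758) than in splenic cDC1 (3956, 3981, 2878 and 3947), a difference of -0.88 that stayed under the fold threshold.

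Gbp7 had the largest subset difference of the 5 GBPs in each state. It read 6.18, 12.8, 20.3 and 21.5 in splenic cDC1 and 146, 227 and 225 in splenic cDC2 (3.73 ± 0.75, SE, adjusted p = 0.000729). In immature thymic cells it read 22.8, 43.3, 17.2 and 40.4 in cDC1 and 712, 625 and 408 in cDC2 (4.25 ± 0.75, SE, adjusted p = 0.00021), and in mature cells 9.22, 0 and 24.8 in cDC1 and 212, 262 and 83.2 in cDC2 (4.71 ± 0.80, SE, adjusted p = 0.000217). In 1 mature cDC1 sample it had 0 reads, which allows up to 3 reads. Gbp2, Gbp3 and Gbp4 were also called higher in cDC2 in both immature states, in the thymus by 3.58, 3.32 and 3.07. In the spleen, 4 of the 5 GBPs were thus called higher in cDC2 and 0 lower. Among mature cells 2 of the 5 were called higher in cDC2 and 1 lower.

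The members higher in cDC1 were few. Ifi205 was the foremost, by -6.29 ± 0.32 (SE) on the log2 scale in the spleen, -3.40 ± 0.32 in the immature and -3.41 ± 0.34 in the mature thymus, all as cDC2 minus cDC1. Iigp1, an immunity-related GTPase (IRGA6), read 115, 115, 32.3 and 87.2 in splenic cDC1 and 9.15, 35.0 and 0 in splenic cDC2 (-3.47 ± 1.02, SE, adjusted p = 0.0149), with 0 to 56 reads in the latter, and was called in no other comparison. Tgtp1 was lower in splenic cDC2 (-1.34) and higher in immature thymic cDC2 (1.60).

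Markers of other cells moved with the subset. Of 9 macrophage markers, 6, 8 and 8 were higher in cDC2 than in cDC1 in the spleen, the immature and the mature thymus, with sums of 6008 to 6790.1 against 670.2 to 1099.7 in the spleen, the F4/80- gate being named in the labels for cDC1 alone and in the study's flow cytometry for both subsets. Of 8 pDC markers, 2, 3 and 4 were higher, and 3, 0 and 0 lower, with sums of 6978 to 7438 against 3803 to 4716 in the spleen. The monocyte markers summed to 10947 to 19545 in splenic cDC2 and 15792 to 23002 in splenic cDC1, with 1 of 6 higher and 1 lower. In the immature thymus they summed to 18869 to 23171 in cDC2 and 7360.3 to 9893 in cDC1, with 3 higher and 0 lower, and in mature cells to 611 to 1336 and 302 to 536, with 2 higher and 0 lower. Their part in the subset differences of the members was not tested.

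The third comparison followed maturation in the thymus. In cDC1, 15 members were higher and 11 lower in mature cells, against 21.3% and 24.5% of all genes, so that the shares of the members (29.4% and 21.6%) lay near those of all genes. In cDC2, 7 members were higher and 24 lower, against 18.6% and 17% of all genes. The member median was -7.83e-05 in cDC1 and -0.70 in cDC2, beside -0.043 and 0.038 over all genes. Every mature cDC1 sample lay above every immature one in 20 members and below in 13 (27.3% and 28.1% of all genes), and in cDC2 in 10 and 30 (31.1% and 28.8%). The count in cDC1 rested on mature replicate 3: without it 12 members were higher and 20 lower (23.5% and 39.2% of the members), against 21.4% and 26.8% of all genes in that fit. The added calls were Ifi204, Ifit3, Cmpk2, Sp100, Phf11d, Trim30a, Igtp, Oas2 and Oas1a, all lower, and the lost calls Isg15, Dtx3l and Rtp4. All mature libraries were run on lane 8, and within that lane 14 members were higher and 13 lower in cDC1 (20.5% and 23.3% of all genes), and 7 and 23 in cDC2 (17% and 15.8%).

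The 4 GBPs Gbp2, Gbp3, Gbp4 and Gbp5/Gbp2b made the largest rises of all members in both subsets. Gbp2 read 43.9, 58.3, 85.8 and 126 in immature and 10542, 11788 and 10735 in mature cDC1 (7.22 ± 0.24, SE, adjusted p = 2.33e-15). In cDC2 it read 759, 821 and 1086 in immature and 18227, 18316 and 22905 in mature cells (4.49 ± 0.26, SE, adjusted p = 2.7e-11). Gbp4 read 103, 142, 82.7 and 90.9 in immature and 13901, 17178 and 13197 in mature cDC1 (7.15 ± 0.24, SE, adjusted p = 3.63e-15). In cDC2 it read 784, 1063 and 787 in immature and 6436, 7285 and 11989 in mature cells (3.25 ± 0.26, SE, adjusted p = 3.08e-09). Gbp5/Gbp2b read 630.4, 733 and 446 in mature cDC1 (7.80 ± 0.68, SE, adjusted p = 4.81e-09), from 0 to 7 reads in the immature samples, so that the size of the fold depends on the pseudocount. In cDC2 it read 11.7, 1.34 and 7.79 in immature and 156, 127 and 259.8 in mature cells (4.76 ± 0.73, SE, adjusted p = 1.86e-05). The mature and immature samples did not overlap for any of the 3 genes in either subset. Gbp3 rose by 4.06 in cDC1 and 1.95 in cDC2, and Gbp7 fell by 2.22 and 1.76 on the log2 scale. The exons of Gbp4 share 61 bases with those of Gbp8 and 60 with those of Gbp9 on the same strand, and Gbp8 and Gbp9 themselves rose by 5.05 and 3.46 in cDC1.

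Outside the GBPs, 3 more members rose in both subsets: Mx1 (1.45 in cDC1 and 1.91 in cDC2), Herc6 (3.09 and 1.29) and Tgtp1 (3.15 and 1.39). The 7 members called higher in both made up 46.7% of those called higher in cDC1 and 100% in cDC2. For all genes, the 2154 called higher in both made up 67.7% and 77.5%. Mx1 read 5681, 6705, 5135 and 6958 in immature and 15942, 17117 and 16661 in mature cDC1. Tgtp1 read 1389.9, 1177 and 3306 in mature cDC1, with the highest value in the third sample, and 1430.3, 1415 and 1906 in mature cDC2. Its near-identical neighbour Tgtp2 fell by 1.72 and 1.28, so that the division of reads between the pair bears on both values.

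In both subsets 10 members fell: Ifi205, Ly6e, Ifi44, Gbp7, Slfn8, Ifit2, Samd9l, Dhx58, Slfn5 and Irgm1. They made up 90.9% of the members called lower in cDC1 and 41.7% of those called lower in cDC2. For all genes, the 2083 called lower in both made up 56.9% and 81.8%. Ifi205 read 1001, 747 and 1688 in mature cDC1 (-4.24 ± 0.32, SE, adjusted p = 5.47e-10) and 77.5, 156 and 84.0 in mature cDC2 (-4.25 ± 0.34, SE, adjusted p = 3.29e-09), below every immature thymic sample of its subset. Ly6e read 43298, 53833, 71216 and 35049 in immature and 3620.4, 3092 and 7311 in mature cDC1 (-3.50 ± 0.34, SE, adjusted p = 2.43e-08). In cDC2 it read 25633, 28261 and 35432 in immature and 4507, 4484 and 1625 in mature cells (-3.20 ± 0.37, SE, adjusted p = 4.26e-07), again without overlap. Ifi44 read 304, 392 and 770.0 in mature cDC1 (-2.31 ± 0.28, SE, adjusted p = 4.92e-07) and 317, 365 and 430.1 in mature cDC2 (-1.99 ± 0.30, SE, adjusted p = 1.38e-05), between its splenic and its immature thymic levels. The 14 members called in neither subset included Usp18 (0.22 and -0.11), Bst2, the tetherin that holds virions at the membrane (0.68 and 0.20), and Adar (0.87 and 0.28).

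Maturation differed between the subsets. A test of the difference called 19 members, all with a lower change in cDC2 than in cDC1, and 0 higher, against 5.27% and 8.38% of all genes by limma. With edgeR, 21 members were lower (5.19% of all genes) and 0 higher (7.74%), and with DESeq2 22 (6.54%) and 0 (8.13%). At an unadjusted limma p below 0.05, 0 members had a higher change in cDC2. By the call, 3 effectors moved in opposite directions: Ifit1, Oasl2 and Rtp4 rose in cDC1 and fell in cDC2. Ifit1 read 98.0, 89.9, 68.7 and 61.6 in immature and 189.9, 379.5 and 655 in mature cDC1 (2.19 ± 0.34, SE, adjusted p = 1.45e-05). In cDC2 it read 1838, 2178 and 2005 in immature and 656, 652 and 706 in mature cells (-1.58 ± 0.37, SE, adjusted p = 0.00138). The difference between these changes was -3.77 ± 0.50, SE, adjusted p = 4.04e-05. For Rtp4 the changes were 1.32 and -2.04, and for Oasl2 2.14 and -1.01, and without mature cDC1 replicate 3 the rise of Rtp4 was 0.71 and not called. That rise also lost its call without immature cDC1 replicate 4 and with only the compared groups fitted. The fall of Oasl2, at the edge of the threshold, lost its call with edgeR and with values rescaled by TMM. The call was also lost without replicate 2 of immature or of mature thymic cDC2. Ifit3, by contrast, fell in cDC2 (2984, 4036 and 3428 in immature and 401, 478 and 348 in mature cells, -3.09 ± 0.26, SE, adjusted p = 5e-09) and was not called in cDC1 (109, 145, 126 and 113 in immature and 47.9, 53.7 and 94.3 in mature cells, -0.96). Oasl1 rose in cDC1 from 1628, 2140.5, 2058 and 1378 to 4511, 4544 and 7572 (1.60 ± 0.29, SE, adjusted p = 8.04e-05) and in cDC2 read 982, 931 and 1126 in immature and 1358, 1494 and 914 in mature cells (0.28, not called), so that in mature cells it was lower in cDC2 by 2.13 on the log2 scale. The 4 rising GBPs also rose less in cDC2, with a cDC2 minus cDC1 difference of -3.90 for Gbp4, -3.04 for Gbp5/Gbp2b, -2.74 for Gbp2 and -2.11 for Gbp3, from immature levels that were higher in cDC2 for Gbp2, Gbp3 and Gbp4.

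**Figure D4:**
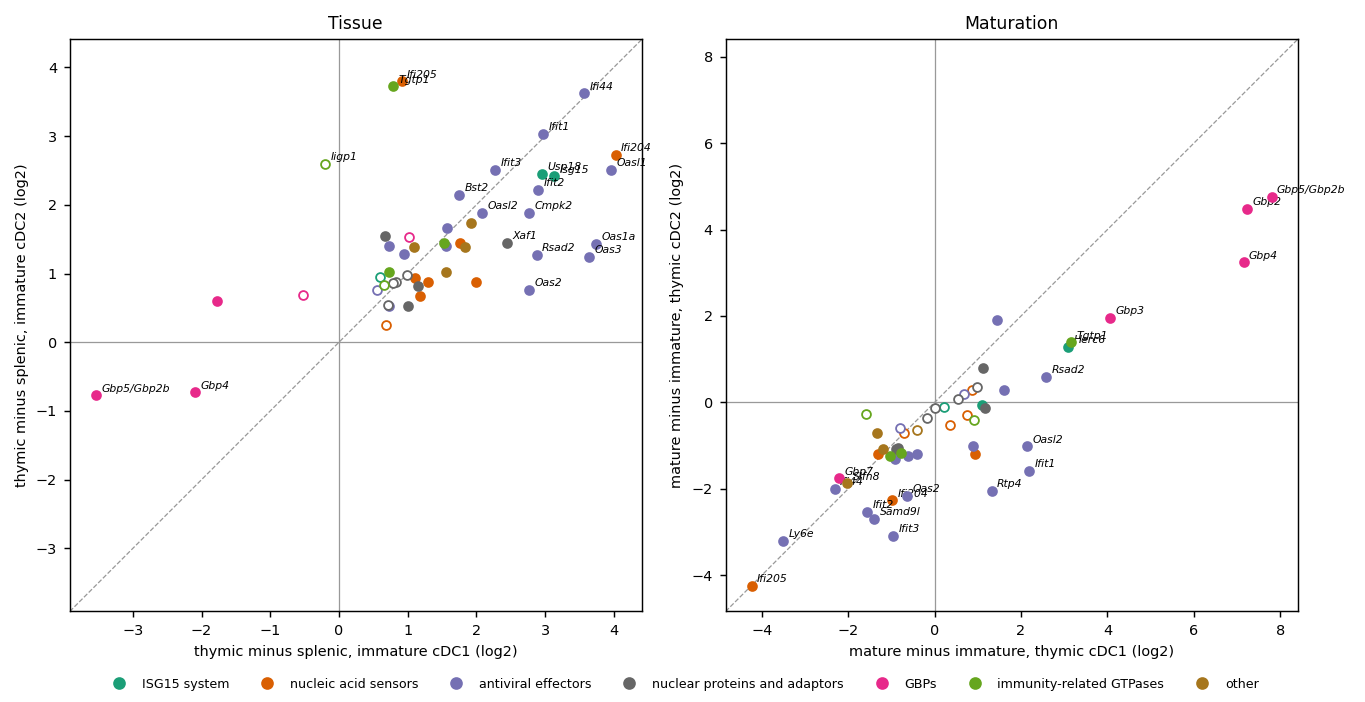
Each point is 1 member, with its log2 difference in cDC1 on the horizontal and in cDC2 on the vertical axis, for thymus minus spleen in immature cells (left) and mature minus immature thymic cells (right). Filled points were called in at least 1 subset, colours give the role, and the dashed line marks equal differences. On the left most points lie in the upper right with Gbp2, Gbp3, Gbp4 and Gbp5/Gbp2b to the left of 0, and on the right most points lie below the dashed line.

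Markers of other cells also moved with maturation. The 8 tested thymocyte markers were higher in mature cells of both subsets, with sums of 1369 to 2586 in mature and 187 to 273 in immature cDC1, and 836 to 1370.5 and 190.0 to 307 in cDC2. Of 6 monocyte markers, 4 fell and 1 rose in cDC1 and 5 fell in cDC2, with sums of 18869 to 23171 in immature and 611 to 1336 in mature cDC2. In cDC1 the macrophage markers summed to 1043 to 1333 in immature and 5861 to 8542 in mature cells, where 2 of 9 were higher and 4 lower and Vcam1 made up most of the mature sum. The same markers spread widely in mature cDC2 (5744 to 18730.4), with C1qa at 4196, 4445 and 532, and 1 was called higher and 2 lower in mature than in immature cDC2. Of 8 pDC markers, 2 were higher and 4 lower in mature cDC1, and 3 and 5 in mature cDC2. Markers of thymic epithelial cells had sums of 1805 to 2579 in mature cDC1, with 2 of 6 higher and 1 lower than in immature cells, and of 3817 to 4878 in mature cDC2, with 4 higher and 1 lower. Aire made up most of these mature sums, with means of 1793 in cDC1 and 3408 in cDC2 (rises of 7.71 and 6.40). Epcam, most of the immature sums, was the gene called lower (-1.94 and -3.19). The markers of the subsets lay closer together in mature cells: those of cDC1 summed to 43108 to 47586 in mature cDC1 and 16974 to 24346 in mature cDC2, against 94682 to 103347 and 4354 to 7343 in immature thymic cells. In mature cDC2 the cDC2 markers summed to 13928 to 17615, from 46867 to 49132 in immature cells, and the cDC1 markers consisted mainly of Irf8 and Batf3, with Xcr1 at 20.7, 25.1 and 11.0 and Clec9a at 26.9, 39.7 and 41.6. By the test of the difference in maturation between subsets, 4 of the 6 cDC1 markers had a higher and 4 of the 5 cDC2 markers a lower change in cDC2. Of the 6 maturation markers (Ccr7, Esam, Fscn1, Cd40, Cd80 and Ccl22), 4 had a lower and 0 a higher change in cDC2. The sample with the lowest C1qa also had the lowest Ly6e and Irf7 of its group, a likeness noticed after the values were seen. The part of these markers in the member changes, and in the differences between mature subsets, was not tested.

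The pathway above these genes was examined in lists of ligands, receptors, transcription factors and inhibitors. Of 21 interferon genes listed, 17 were matched, 11 had at most 3 reads in any sample, of which 6 had 0 reads throughout, and 0 passed the filter on low values. The other 6 reached at most 13 reads in a sample. The highest count of Ifnb1 was 6 reads in a sample. Ifnl2, a type III interferon, had 4 to 10 reads in each of the 4 immature thymic cDC1 samples, 13 in 1 mature thymic cDC1 sample and 9 in 1 splenic cDC1 sample. It had 0 to 1 reads in the 3 immature thymic cDC2 samples. Ifng, the type II interferon, had 7, 6 and 2 reads in splenic cDC2 and 0 in every other sample, which allows up to 3 reads in each. With so few reads no ligand was tested. The 4 markers of natural killer cells summed to 11.4 to 57.5 in splenic cDC2 and to at most 12.3 in samples of the other groups. The source of the Ifng reads was not tested.

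Among the 9 receptor chains and kinases, both chains of the type I receptor were expressed in every sample. Ifnar1 read 2801, 3522, 2896 and 3138 in the spleen, 3789, 3671, 3018 and 3539 in immature thymic cells and 4186, 4005 and 4575 in mature thymic cells in cDC1. The cDC2 values were 3819, 4625 and 4929 in the spleen, 3338, 3905 and 2956 in immature thymic cells and 3003, 3074 and 3244 in mature thymic cells. Ifnar2 read 712, 888, 1087 and 995 in the spleen, 1000.2, 1269, 1111 and 902 in immature thymic cells and 726, 726 and 756 in mature thymic cells in cDC1, and in cDC2 1739.7, 1583 and 1916 in the spleen, 1130.5, 1008 and 1011 in immature thymic cells and 1044, 927 and 631 in mature thymic cells. Neither gene was called in any comparison of a pair of groups, the largest difference being 0.94 for Ifnar2 between the splenic subsets.

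Ifngr1, the ligand-binding chain of the IFN-gamma receptor, fell at each step. It read 19228, 18982, 16309 and 18481 in splenic cDC1, 5939, 6615, 4770.2 and 5435 in immature thymic cDC1 (-1.69 ± 0.16, SE, adjusted p = 1.76e-07) and 889, 596 and 603 in mature thymic cDC1 (-3.04 ± 0.17, SE, adjusted p = 5.66e-12). Its levels in cDC2 were 11547, 10794 and 11612 in the spleen, 4569, 5716 and 4179 in immature thymic cells (-1.24 ± 0.18, SE, adjusted p = 4.37e-05) and 1020.3, 1056 and 693 in mature thymic cells (-2.40 ± 0.18, SE, adjusted p = 1.42e-09). Neighbouring groups did not overlap in either subset. Ifngr2, the signalling chain, read 1165, 1616, 1341 and 1445 in the spleen, 2565, 2532, 2323 and 2242 in immature thymic cells and 3132, 4021 and 4076 in mature thymic cells in cDC1, and was not called. The cDC2 values were 1634, 1877 and 2012 in the spleen, 2629, 2503 and 2274 in immature thymic cells and 3087, 2785 and 2833 in mature thymic cells, again without a call. Ifnlr1, the specific chain of the type III receptor, was higher in the thymus by 2.78 in cDC1 and 4.70 in cDC2 and fell with maturation (-1.65 and -1.26). Jak2 rose with maturation of cDC1 (1.58) and Tyk2 in both subsets (1.28 and 2.05).

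Of the 10 transcription factors, Irf7, itself induced by interferon, had the largest tissue difference in both subsets. It read 2092, 2501, 3742 and 2627 in splenic cDC1, 12924, 16099, 17601 and 11736 in immature thymic cDC1 (2.43 ± 0.32, SE, adjusted p = 1.64e-05) and 4404, 3664 and 13081 in mature thymic cDC1 (-1.27 ± 0.35, SE, adjusted p = 0.00362). Its levels in cDC2 were 3200.3, 1887 and 3484 in the spleen, 10072, 12262 and 11561 in immature thymic cells (2.03 ± 0.37, SE, adjusted p = 0.000471) and 4041, 4579.8 and 2096 in mature thymic cells (-1.73 ± 0.37, SE, adjusted p = 0.000637). The third mature cDC1 sample lay within the immature range, and the third mature cDC2 sample within the splenic range.

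Stat2 read 3034, 3446, 3167 and 3252 in the spleen, 10094, 9906, 7571 and 9977 in immature thymic cells and 6244, 6114 and 8267 in mature thymic cells in cDC1, and was called between tissues (1.53 ± 0.13, SE, adjusted p = 3.45e-08). The cDC2 values were 4619.6, 3887 and 4701 in the spleen, 7588, 8027 and 6425 in immature thymic cells and 4726, 4347 and 4599 in mature thymic cells, with a tissue difference of 0.74 that was not called. Irf9, the DNA-binding partner of STAT2, was called in no comparison. It read 2503, 2961, 2594 and 2634 in the spleen, 3445, 3319, 3419 and 3227 in immature thymic cells and 3285, 2719 and 3852 in mature thymic cells in cDC1, and in cDC2 2917, 2562 and 2905 in the spleen, 2959, 3158 and 3259 in immature thymic cells and 3646, 3469.6 and 3262 in mature thymic cells. Irf1 was not called between tissues (-0.66 and -0.43) and rose with maturation, from 1164, 1578, 1537 and 1287 to 40435, 44180.0 and 52848 in cDC1 (5.04 ± 0.17, SE, adjusted p = 2.35e-15) and from 2047, 2488 and 2243 to 17803, 18896 and 17309 in cDC2 (3.00 ± 0.18, SE, adjusted p = 4.92e-11). Its rise was smaller in cDC2 by 2.04 on the log2 scale, as were those of the 4 rising GBPs. A lower maturation change in cDC2 was called for 19 members in all and for 4 of the 6 maturation markers. A link between Irf1 and the GBPs was not tested.

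**Figure D5:**
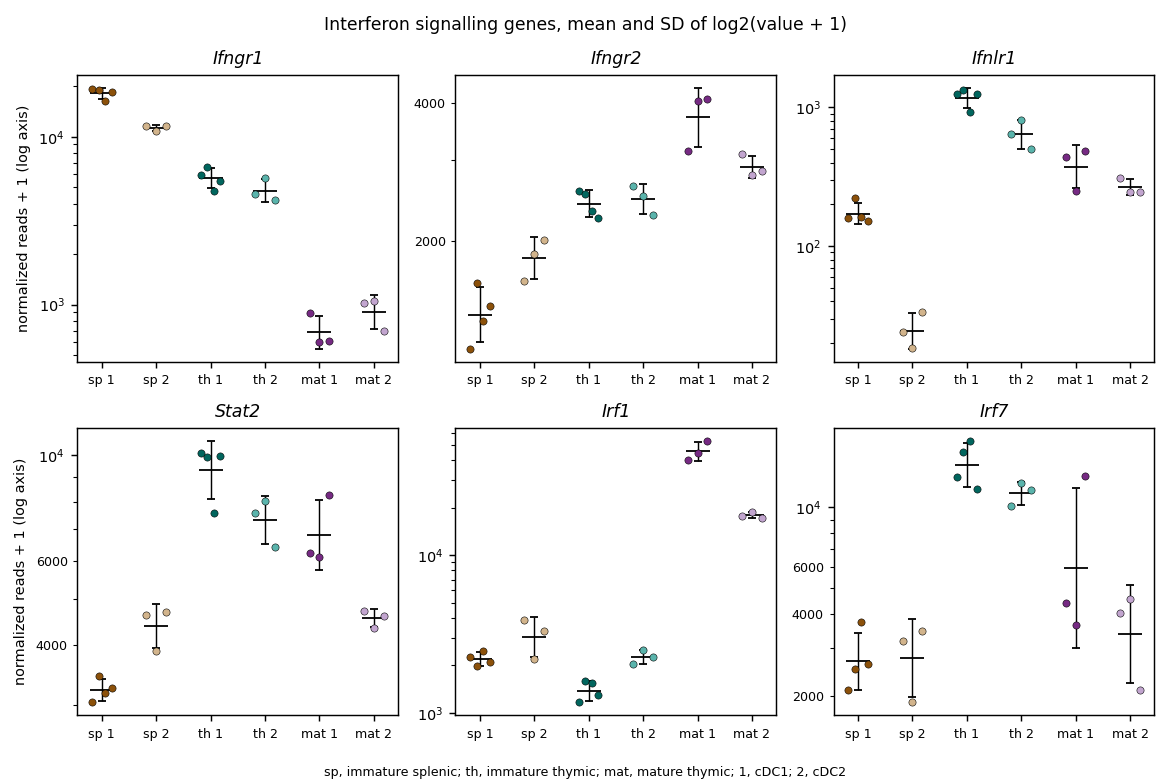
Points are the normalized reads plus 1 of single samples on a log axis for 6 genes of interferon signalling, with a bar at the mean and whiskers of 1 SD of log2(value + 1). Ifngr1 steps down from spleen to immature to mature thymus, Ifnlr1 and Irf7 are highest in the immature thymic groups, Ifngr2 is lowest in the splenic groups, Stat2 is lowest in splenic cDC1, and Irf1 is highest in the mature groups.

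The inhibitors Socs1 and Socs3, which block JAK kinases, were higher in the thymus, Socs1 by 1.41 in cDC1 and 1.60 in cDC2 and Socs3 by 2.94 and 2.91. They then parted with maturation, Socs1 rising (1.67 and 2.70) and Socs3 falling in cDC2 (-1.48) and not being called in cDC1 (-0.81). In all, of 9 inhibitors tested 2 were higher and 0 lower in the thymus in each subset, and with maturation 3 were higher and 2 lower in cDC1, and 1 and 1 in cDC2. Of 12 tested genes of nucleic acid sensing upstream of interferon, 0 were higher in the thymus in either subset, while 1 was lower in cDC1 and 2 in cDC2, Tlr7 in both (-2.60 and -2.51). With maturation 3 were higher and 5 lower in cDC1, and 2 higher and 2 lower in cDC2. For both lists, the shares over all genes with maturation were 21.3% higher and 24.5% lower in cDC1, and 18.6% and 17% in cDC2. Between tissues they were 4.26% and 4.49% in cDC1, and 8.3% and 5.87% in cDC2. Ikbke, a kinase that activates IRF3 and IRF7, rose by 5.41 and 2.65, and Tlr3, the endosomal sensor of double-stranded RNA, fell by 8.45 and 4.21 on the log2 scale.

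Interferon-stimulated genes outside the members moved in both directions. Of 32 tested, 8 were higher and 2 lower in thymic cDC1, and 8 and 1 in thymic cDC2, with medians of 0.50 and 0.45. Over all genes, 4.26% were higher and 4.49% lower in thymic cDC1, and 8.3% and 5.87% in thymic cDC2. Ube2l6, the conjugating enzyme for ISG15, was higher in the thymus (2.20 and 1.98) and also rose with maturation (2.57 and 2.54). Cd274, which encodes PD-L1, and Nlrc5, a regulator of class I genes, rose with maturation by 6.07 and 2.50 in cDC1 and 2.63 and 2.45 in cDC2. Of 30 close relatives of the members that were tested, 18 were higher and 0 lower in thymic cDC1, and 16 higher and 3 lower in thymic cDC2. Examples are Slfn1 (6.54 and 4.86) and Ifi213 (4.08 and 1.35). The 3 that were lower in thymic cDC2 were Aim2 (-1.20), Gbp8 (-1.09) and Gbp9 (-1.08).

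Of the genes outside all lists, the 5 whose log2 values over the 20 samples were most like the member level, by Pearson's r, were Cish (0.950), AU020206 (0.949), Itsn1 (0.941), Mmp14 (0.938) and Gm21188 (0.936). The group means of Cish, an inhibitor of cytokine signalling, were 4.03 in splenic and 156 in immature thymic cDC1, and 37.6 in splenic and 1663 in immature thymic cDC2. These values are a description, since the 20 samples share 6 groups.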

How the data were processed

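RNA of sorted cDCs was measured in 21 libraries of 6 groups, assigned by the labels. Per the study's methods, stranded mRNA libraries were sequenced on a HiSeq, trimmed with Cutadapt, aligned with STAR and counted with HTSeq. The submitters' processing notes name mm10, STAR 2.6 and DESeq2 1.24.0; the annotation release and strand setting are not given in the sources used here. The deposited values are a normalized signal that the authors made by dividing the read counts by 1 size factor per library. Whole reads were recovered for 100% of values (tolerance 0.01), with 14266867 to 40119669 reads per library, so that genes of a few reads are imprecise. Splenic cDC1 replicates 4 and 5, which shared a library-name number, index and lane and differed far less than other pairs, were summed and counted as 1 sample, giving 20. Immature thymic cDC1 replicates 3 and 4 also shared these labels and were kept as separate samples. Their chi-square per degree of freedom was 100.5, against 2.53 for the splenic pair.

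All 6 groups were fitted together with limma 3.58.1 (R 4.3.3) on log2(value + 1), with an intensity-trended prior, over 14966 genes that reached 10 in 3 or more samples. Calls required a log2 fold change past 1 in either direction and a two-sided p, adjusted by Benjamini and Hochberg, of less than 0.1. Differences between subsets in a tissue or maturation effect were contrasts of the same fit. edgeR 4.0.16 and DESeq2 1.42.0 on the recovered reads were alternatives, with other pseudocounts, filters, scalings, lanes and samples left out. The scripts were tested on simulated data. Python 3.11.15 and pandas 2.3.3 made the tables. Values in every sample are given for the 3 members with the largest rise and the 3 with the largest fall among those called in each comparison, the 3 with the largest difference between subsets, and Stat2, Irf7, Irf9 and the type I and II receptor chains. A further pathway gene of this rule is not reported here. Other members are named by role, and a few were chosen after their values were seen. The members and lists were chosen with earlier results of these data known. Exon lengths and overlaps came from GENCODE M21 and promoters from RefSeq (GRCm38.p6).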

Additional observations from a re-analysis of the deposited data

Results flagged for a closer look

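Samples far from the others of their group were sought in the 2 groups of 4, where 8 of 102 pairs of member and group passed Dixon's 95% critical value for 4 samples, and chance passes about 1 in 20. The gap to the nearest sample, as a share of the group's range, was 0.969 for Mx1 (lowest), 0.9 for Oasl1 (highest) and 0.834 for Ifi204 (lowest) in splenic cDC1 replicate 3, and 0.885 for Tgtp1 (highest) in splenic cDC1 replicate 2. In immature thymic cDC1 replicate 3, the lowest of its group each time, it was 0.884 for Rsad2, 0.842 for Trim30a, 0.834 for Samd9l and 0.831 for Parp14.

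The change with maturation differed between the subsets, by the limma contrast of the difference (cDC2 minus cDC1), for 19 members. The log2 differences were -3.9 for Gbp4, -3.77 for Ifit1, -3.36 for Rtp4, -3.15 for Oasl2, -3.04 for Gbp5/Gbp2b, -2.74 for Gbp2, -2.14 for Ddx58, -2.13 for Ifit3, -2.11 for Gbp3 and -1.99 for Rsad2. They were -1.89 for Oas3, -1.81 for Herc6, -1.76 for Tgtp1, -1.32 for Oasl1, -1.3 for Samd9l, -1.29 for Parp14, -1.28 for Ifi204, -1.14 for Isg15 and -1.04 for Zbp1.

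By the contrast of the tissue effect, 5 members were higher and 8 lower, against 3.25% and 1.72% of all genes. The difference between thymus and spleen thus differed between the subsets (cDC2 minus cDC1) for 13 members. It was 2.94 for Tgtp1, 2.89 for Ifi205, 2.37 for Gbp2, 1.36 for Gbp4 and 1.22 for Gbp3, and -2.4 for Oas3, -2.31 for Oas1a, -2.01 for Oas2, -1.61 for Rsad2, -1.45 for Oasl1, -1.3 for Ifi204, -1.13 for Ddx58 and -1.01 for Xaf1.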

How the results depend on the processing

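Of 5041 alternative values for the 256 calls of single members and pathway genes, 4877 kept direction and call, 164 lost the call and 0 changed sign. With the adjusted p alone and no fold threshold, 23 members were higher and 21 lower in mature cDC1, and in cDC2 against cDC1 14 were higher and 12 lower in mature cells, 8 lower in the spleen and 3 lower in the immature thymus, with 1 lower in thymic than splenic cDC2. These counts grow by construction, since the fold threshold is dropped. With the libraries of lane 8 alone, the tissue difference differed between subsets for 2 members higher and 2 lower, from fewer samples. Leaving out 1 sample at a time gave 10 to 20 members lower in mature cDC1, 0 to 1 with a higher and 14 to 22 with a lower maturation change in cDC2 than in cDC1, and 5 to 8 with a lower tissue difference in cDC2. The member median between mature subsets ran from -0.2796 to 0.2533 and that of the difference in maturation from -0.8787 to -0.4582, the latter values of both without mature thymic cDC1 replicate 3. With the library-name number as a replicate block, 24 members were higher and 4 lower in splenic cDC2, and 21 and 1 in immature thymic cDC2, and no call was lost. Same-numbered samples correlated at -0.0783 to 0.46 in the spleen and -0.15 to 0.275 in the thymus over all genes. Over the members, 3 of the 4 pairs gave 0.124 to 0.695 and the other -0.244 in the spleen, and 0.578 to 0.828 and -0.501 in the thymus. Since not every pair was above 0.1 in either, the numbers were not taken as pairs. Genes of a few reads, such as Gbp5/Gbp2b in immature cells, are limited by depth.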
